A study of Mus musculus with 12 samples.

Results

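Cells that receive a signal through the MAP kinases ERK, JNK and p38 switch on genes whose products shut the same pathway down. Levels of 10 such feedback genes were compared across sorted mouse CD4 T cells. The 10 genes are the dual-specificity phosphatases Dusp1, Dusp2, Dusp4, Dusp5, Dusp6 and Dusp10, the Sprouty genes Spry1 and Spry2, and the Sprouty-related genes Spred1 and Spred2. They were taken by name, and every probe set that the array annotation gives to their symbol alone was included. This gave 23 of the 45101 probe sets of the array, of which 15, for 9 of the 10 genes, reached a log2 signal of 5 on at least 2 arrays and were tested. Both probe sets of Spry2 stayed below that filter.

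The 5 groups were sorted from mice that carry a Venus fluorescent reporter at S1pr2 (S1pr2V/+), which encodes a receptor for sphingosine-1-phosphate. Lymph node cells came from mice given chicken gamma globulin (CGG) in complete Freund's adjuvant (CFA) under the skin 10 days earlier, and every sorted cell was CD4+ and negative for the dump channel. The follicular helper (Tfh) gate, meant for T cells that aid B cells in the follicle, was CXCR5+ PD1-high CD44-high and was divided into Venus-high Tfh (3 arrays) and Venus-low Tfh (3 arrays). PD1-intermediate Th cells (2 arrays) were CXCR5+ CD44-high, and PD1-low Th cells (2 arrays) were CXCR5-low CD44-high. Naive CD4+ T cells (2 arrays) were CD44-low CD62L-high cells of the spleen. The sample labels say that the spleen donors too were immunized S1pr2V/+ mice, while the design text also speaks of control mice. Each array held the pooled cells of 4 or 6 mice, or of 2 mice for naive cells, so pools and not single mice are the units. The labels do not say that the pools of different groups came from different mice. Organ and cell type differ together in every comparison with naive cells and cannot be told apart.

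MAP kinase phosphatases remove the activating phosphates of a MAP kinase and are mostly made in response to the kinase they inactivate. Dusp1, Dusp2, Dusp4 and Dusp5 encode nuclear enzymes that early growth and antigen receptor signals induce, Dusp6 encodes a cytoplasmic enzyme selective for ERK, and Dusp10 acts on JNK and p38. Sprouty proteins restrain the steps between receptors, Ras and ERK, and Spred proteins bring the Ras inhibitor neurofibromin to the membrane. In T cells antigen receptor signals run through ERK, JNK and p38, and messenger RNA of these genes is often read as a trace of recent signalling. The arrays measured messenger RNA only, and neither phosphorylated kinases nor protein were measured.

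Promoter sequences from RefSeq (GRCm38.p6), the 250 bases before the annotated start, were found for 9 of the 10 genes, Dusp4 being the exception. Those of Dusp1, Dusp6 and Spred1 are shown, which stand for the nuclear phosphatases, the cytoplasmic phosphatase and the Sprouty family. These genes were higher in Venus-high Tfh than in naive cells in the set-adjusted fit described below, while Dusp6 did not pass in the plain fit. Capitals mark the motif found in each, read 5′ to 3′ along the gene. Dusp1 lies on the minus strand at chr17:26508473-26508722, Dusp6 on the plus strand at chr10:99262981-99263230 and Spred1 on the plus strand at chr2:117120821-117121070.
Dusp1: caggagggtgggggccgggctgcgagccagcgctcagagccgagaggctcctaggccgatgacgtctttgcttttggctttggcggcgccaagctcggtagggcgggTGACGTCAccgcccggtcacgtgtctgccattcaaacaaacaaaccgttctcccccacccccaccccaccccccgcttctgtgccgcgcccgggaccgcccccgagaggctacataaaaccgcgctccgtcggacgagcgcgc
Dusp6: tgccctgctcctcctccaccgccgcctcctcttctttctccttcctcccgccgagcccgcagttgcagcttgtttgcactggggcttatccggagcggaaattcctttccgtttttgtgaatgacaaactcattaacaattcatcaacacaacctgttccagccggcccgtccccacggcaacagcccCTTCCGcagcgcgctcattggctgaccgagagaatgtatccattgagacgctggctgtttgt
Spred1: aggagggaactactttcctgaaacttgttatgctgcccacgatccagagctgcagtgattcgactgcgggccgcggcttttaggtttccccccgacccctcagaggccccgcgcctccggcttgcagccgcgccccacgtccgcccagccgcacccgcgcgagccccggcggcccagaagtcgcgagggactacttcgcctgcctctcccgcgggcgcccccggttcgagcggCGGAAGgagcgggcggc
In Dusp1 the capitals are a cAMP response element, TGACGTCA, 143 to 136 bases before the start, a motif that 1.55% of 32851 promoter windows of the same length held. In Spred1 they are the ETS site CGGAAG, 17 to 12 bases before the start, and in Dusp6 the same site on the other strand, 62 to 57 bases before it. The ETS site was in 13.6% of all windows. On both strands, 5 motifs were searched, and the other results were 2 adjacent CArG boxes in Dusp5 (1.47% of windows held 1 or more) and 1 ETS site in Spred2. The AP-1 site TGANTCA (6.75% of windows) and the E-box CAGCTG (13% of windows) were in none of the 9 windows, and Dusp2, Dusp10, Spry1 and Spry2 held none of the 5 motifs. A match describes letters, not binding.

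Values are GCRMA log2 signals, differences are the group named first minus the group named second with their SE, and p-values are limma's, adjusted over all 22024 probe sets tested, with a call at an adjusted p under 0.05. By the quantiles of their values the 12 arrays fell into 3 array sets that the labels do not name. Set 1 held replicate 1 of Venus-high Tfh, Venus-low Tfh and naive cells. Set 2 held replicate 2 of these groups and PD1-low replicate 1, and set 3 held replicate 3 of both Tfh groups, both PD1-intermediate arrays and PD1-low replicate 2. The 75% quantile was 8.50 to 8.55, 8.68 to 8.76 and 9.39 to 9.42 in sets 1, 2 and 3. Probe sets called displaced, whose fitted effect of a set was above both others or below both others by over 3 on the log2 scale, numbered 542 for set 1, 3315 for set 2 and 234 for set 3. For this reason 2 fits are given, a plain fit of the 5 groups, whose SE includes the spread between sets, and a set-adjusted fit with the array set as a further term. PD1-intermediate cells were in set 3 only, so a set-adjusted value for them rests on the arrays of that set and on the fitted set effects. PD1-low and naive cells shared set 2 only, with 1 array each.

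The labels were checked on gate and lineage genes. S1pr2, whose reporter defined the sort, read 12.58 to 13.09 in Venus-high Tfh, 9.86 to 10.68 in Venus-low Tfh, 9.28 and 9.33 in PD1-intermediate, 7.58 and 7.23 in PD1-low and 5.78 and 6.91 in naive cells. All 5 measured CD4 T cell genes (Cd4, Cd3e, Cd3g, Cd3d and Cd28) read at least 11.5 on every array. All 10 myeloid and dendritic genes read below 5 on every array, as did 4 of 7 B cell genes, among them Cd79a and Ms4a1, and 3 of 10 CD8, NK and gamma delta T cell genes. Others in these lists moved with the groups. Cd22, listed as a B cell gene, read 12.14 to 13.01 in Venus-high Tfh, 10.6 to 12.28 in Venus-low Tfh, 10.13 and 9.32 in PD1-intermediate, 3.77 and 4.19 in PD1-low and 2.39 and 3.18 in naive cells. Cd79b of the same list went the other way, with 2.5 to 3.99 in Venus-high Tfh, against 5.83 and 8.99 in PD1-low cells. The summed level of the 7 B cell genes was 27.1 to 30.0 in Venus-high Tfh, 26.4 to 31.5 in Venus-low Tfh, 27.6 to 27.7 in PD1-intermediate, 23.7 to 24.7 in PD1-low and 16.6 to 20.8 in naive cells. Nkg7, a cytotoxic granule gene, read 1.8 to 2.13 in Venus-high Tfh, against 7.57 to 11.02 in Venus-low Tfh. Gzma, another, read 7.06 to 7.72 in Venus-high Tfh, 7.95 to 9.77 in Venus-low Tfh and 4.69 and 5.19 in PD1-low cells. Of the 7 tested genes of this list, 1 was higher and 2 lower in Venus-high Tfh than in PD1-low cells, set-adjusted. Of all probe sets, 12.5% were called higher and 11.7% lower in that comparison. The summed level of the 10 CD8, NK and gamma delta genes was 27.7 to 37.7 in Venus-high Tfh, 45.2 to 60.6 in Venus-low Tfh, 60.4 to 62.0 in PD1-intermediate, 37.3 to 57.5 in PD1-low and 33.3 to 36.5 in naive cells. Foxp3, the regulator of regulatory T cells, read 5.73 to 6.19 in Venus-high Tfh, against 10.71 to 11.16 in Venus-low Tfh. Ikzf2 (12.83 to 13.79 against 12.79 to 13.85), Nrp1 (12.98 to 13.82 against 12.91 to 13.44) and Ctla4 (11.34 to 12.85 against 10.66 to 12.84) overlapped between these groups. Set-adjusted, 5 of the 11 regulatory T cell genes were lower and 0 higher in Venus-high than in Venus-low Tfh, against 5.21% and 3.77% of all probe sets. The summed level of 11 regulatory T cell genes was 84.4 to 103.8 in Venus-high Tfh, 114.1 to 129.8 in Venus-low Tfh, 128.4 to 131.0 in PD1-intermediate, 109.7 to 139.1 in PD1-low and 83.4 to 94.9 in naive cells. These sums include the displaced probe sets of Pax5, Prf1 and Capg, which read differently by array set. Capg, for example, read 2.24 and 12.91 in PD1-low cells, so the ranges of the sums do not measure cell content alone. The part of regulatory T, B, CD8 or NK cells in the differences below was not tested. In such bulk samples, fewer cells that express a gene and less messenger RNA per cell cannot be told apart.

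Dusp4, a nuclear phosphatase for ERK and JNK, had its highest group mean in Venus-high Tfh and its lowest in naive cells. Its log2 signal was 9.29, 9.89 and 11.19 in Venus-high Tfh, 6.91, 8.42 and 9.57 in Venus-low Tfh, 7.10 and 7.37 in PD1-intermediate, 6.71 and 7.99 in PD1-low and 2.45 and 3.44 in naive cells. Both naive arrays lay under 5 and apart from all other arrays, the PD1-intermediate and PD1-low arrays overlapped, and the ranges of the Tfh groups overlapped, while within each array set the Venus-high array was the higher.

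Against naive cells Dusp4 rose in Venus-high Tfh by 7.18 ± 0.85 (adjusted p = 0.00123), which is at least 34.9-fold when naive cells are set at log2 5. The set-adjusted difference was 6.59 ± 0.21 (adjusted p = 9.91e-06), and it was 6.84 within set 1 and 6.45 within set 2. Between the Tfh groups the difference was 1.83 in both fits. It passed the test in the set-adjusted fit (SE 0.18, adjusted p = 0.00516, 3.55-fold), with 2.38, 1.48 and 1.62 within sets 1, 2 and 3, and not in the plain fit (SE 0.76, adjusted p = 0.724). With the replicate number as a block the adjusted p was 0.0566 on all arrays and 0.0507 on the 6 Tfh arrays alone, so the call was kept in neither. On the 6 Tfh arrays the replicate number and the array set coincide, so that fit also adjusts for the set, with fewer arrays. Venus-low Tfh exceeded PD1-intermediate cells by 2.24 ± 0.23 in the set-adjusted fit (adjusted p = 0.0178), with 2.34 within set 3, and by 1.06 ± 0.85 in the plain fit (adjusted p = 0.716). The set-adjusted call between these groups was lost without Venus-low replicate 3 or either PD1-intermediate array, the highest adjusted p being 0.196.

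Dusp4 was also higher in Venus-high Tfh than in PD1-low cells by 3.33 ± 0.21 in the set-adjusted fit (adjusted p = 0.000131), with 3.18 and 3.20 within sets 2 and 3, and by 2.77 ± 0.85 in the plain fit (adjusted p = 0.119). PD1-low cells exceeded naive cells by 3.27 ± 0.24 in the set-adjusted fit (adjusted p = 0.00934), at least 5.10-fold, and by 4.41 ± 0.93 in the plain fit (adjusted p = 0.406). PD1-intermediate minus PD1-low was -0.74 ± 0.24 set-adjusted (adjusted p = 0.134) and -0.12 ± 0.93 in the plain fit (adjusted p = 0.985), with overlapping arrays. The antigen-experienced lymph node groups without high PD1 were not ordered by the test for this gene, and each stood above naive cells in every array.

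Dusp1, a nuclear phosphatase that acts mainly on p38 and JNK, separated naive cells from all other groups. It read 12.58, 12.70 and 13.45 in Venus-high Tfh, 11.98, 12.92 and 13.11 in Venus-low Tfh, 12.48 and 11.98 in PD1-intermediate, 12.82 and 12.95 in PD1-low and 10.66 and 10.75 in naive cells. Among the 4 lymph node groups, Venus-high and PD1-low arrays lay above those of PD1-intermediate cells, and Venus-low arrays overlapped all 3. Venus-high Tfh exceeded naive cells by 2.20 ± 0.41 (adjusted p = 0.0123), or 1.99 ± 0.26 set-adjusted (adjusted p = 0.00157, 3.98-fold), with 1.92 and 1.95 within sets 1 and 2. Without naive replicate 1 the plain adjusted p was 0.0878, and without naive replicate 2 it was 0.0769. With only the arrays of these groups in the fit it was 0.117, and with array weights 0.109. PD1-low minus naive was 2.18 ± 0.45 (adjusted p = 0.387), or 1.76 ± 0.30 set-adjusted (adjusted p = 0.105), of nearly the same size and not called. None of the 4 differences among lymph node groups passed in either fit, the smallest adjusted p being 0.153.

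Dusp2, the phosphatase also called PAC-1 and known from activated lymphocytes, was highest in PD1-low cells. Its signal was 7.59, 9.06 and 9.83 in Venus-high Tfh, 7.53, 9.10 and 9.73 in Venus-low Tfh, 9.76 and 9.95 in PD1-intermediate, 11.05 and 11.20 in PD1-low and 9.20 and 10.02 in naive cells. Both PD1-low arrays lay above all other arrays, and the Tfh groups matched each other within every array set, differing by 0.07, -0.04 and 0.10. Dusp2 fell in Venus-high Tfh relative to PD1-low cells in the set-adjusted fit, by 1.74 ± 0.23 (difference -1.74, adjusted p = 0.00217, 3.34-fold), with -1.99 and -1.37 within sets 2 and 3. In the plain fit this difference was -2.30 ± 0.77 (adjusted p = 0.159). It was lower in Venus-high Tfh than in naive cells too, by -1.22 ± 0.23 set-adjusted (adjusted p = 0.00784) and -0.79 ± 0.77 in the plain fit (adjusted p = 0.867). PD1-intermediate cells were lower than PD1-low cells by -1.57 ± 0.26 set-adjusted (adjusted p = 0.0168), a call lost without either PD1-intermediate array, and by -1.27 ± 0.84 in the plain fit (adjusted p = 0.838). Between the Tfh groups the set-adjusted difference was 0.04 ± 0.20 (adjusted p = 0.926).

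Dusp1 and Dusp2 are early response genes, which tissue handling can induce, so a list of handling genes is given beside them. The summed level of 12 stress genes, Fos, Jun and Hspa1b among them, was 90.2 to 109.5 in Venus-high Tfh, 89.2 to 109.0 in Venus-low Tfh, 107.2 to 110.2 in PD1-intermediate, 115.0 to 118.8 in PD1-low and 92.3 to 94.3 in naive cells. Of the 11 tested, 1 was lower and 0 higher in Venus-high Tfh than in PD1-low cells in the plain fit, and 4 lower and 0 higher in the set-adjusted fit, with medians of -1.22 and -0.62. Against naive cells 1 was higher and 0 lower in the plain fit, and 3 higher and 2 lower set-adjusted. Of all probe sets, 3.44% were called higher and 2.67% lower than in PD1-low cells in the plain fit, and 5.44% and 2.33% against naive cells. Set-adjusted, these shares were 12.5% and 11.7%, and 13.8% and 15.2%. Jun read 9.51, 10.66 and 10.46 in Venus-high Tfh, against 12.16 and 11.99 in PD1-low cells. Atf3 read at most 2.18 on every array. The part of handling in the levels of Dusp1 and Dusp2 was not tested.

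Dusp5, a nuclear phosphatase for ERK alone, was measured by a probe set that read differently in each array set and could not be compared across them. All 4 arrays of set 2, from 4 groups, read 2.32 to 2.35. Within set 1 its signal was 4.99 in Venus-high Tfh, 5.04 in Venus-low Tfh and 7.96 in naive cells. Within set 3 it was 7.66 in Venus-high Tfh, 9.51 in Venus-low Tfh, 9.69 and 9.69 in PD1-intermediate and 10.85 in PD1-low cells. The Venus-high array was the lowest of its set in both and differed from the Venus-low array by -0.04 and -1.84, with no replicate within a set. No comparison of Dusp5 passed in either fit, the smallest adjusted p being 0.125, for -1.95 ± 0.82 set-adjusted in Venus-high Tfh minus naive cells.

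Dusp6, the cytoplasmic phosphatase that returns ERK to its inactive state, was lowest in naive cells. It read 9.34, 9.77 and 11.67 in Venus-high Tfh, 8.82, 9.18 and 11.20 in Venus-low Tfh, 11.00 and 10.82 in PD1-intermediate, 8.84 and 10.47 in PD1-low and 8.08 and 7.30 in naive cells. Naive arrays lay below all others, the arrays of the other groups overlapped except that both PD1-intermediate arrays lay above both PD1-low arrays, and the Venus-high array exceeded the Venus-low array of its set by 0.51, 0.59 and 0.47. Venus-high Tfh exceeded naive cells by 1.90 ± 0.29 in the set-adjusted fit (adjusted p = 0.00332, 3.73-fold), with 1.26 and 2.48 within sets 1 and 2, and by 2.57 ± 0.92 in the plain fit (adjusted p = 0.173). The differences from Venus-low Tfh (0.52 ± 0.25 set-adjusted, adjusted p = 0.254) and from PD1-low cells (0.96 ± 0.29, adjusted p = 0.0546) did not pass. A p above the threshold does not show that these levels were equal.

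Dusp10, the phosphatase of JNK and p38, had its lowest group means in the Tfh groups. Of its 2 probe sets, 1 was tested and read 9.03, 9.68 and 10.49 in Venus-high Tfh, 9.13, 9.73 and 10.76 in Venus-low Tfh, 11.20 and 11.01 in PD1-intermediate, 10.16 and 11.45 in PD1-low and 10.92 and 10.09 in naive cells. Both PD1-intermediate arrays lay above all Tfh and naive arrays, and the other groups overlapped. Venus-high Tfh was lower than naive cells in the set-adjusted fit (-1.20 ± 0.33, adjusted p = 0.0334), with -1.90 and -0.41 within sets 1 and 2, and this call was lost on leaving out any of 8 of the 12 arrays. In the plain fit the difference was -0.78 ± 0.63 (adjusted p = 0.766). The other probe set of Dusp10 had group means of 3.80 to 4.11 and was not tested.

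**Figure D1:**
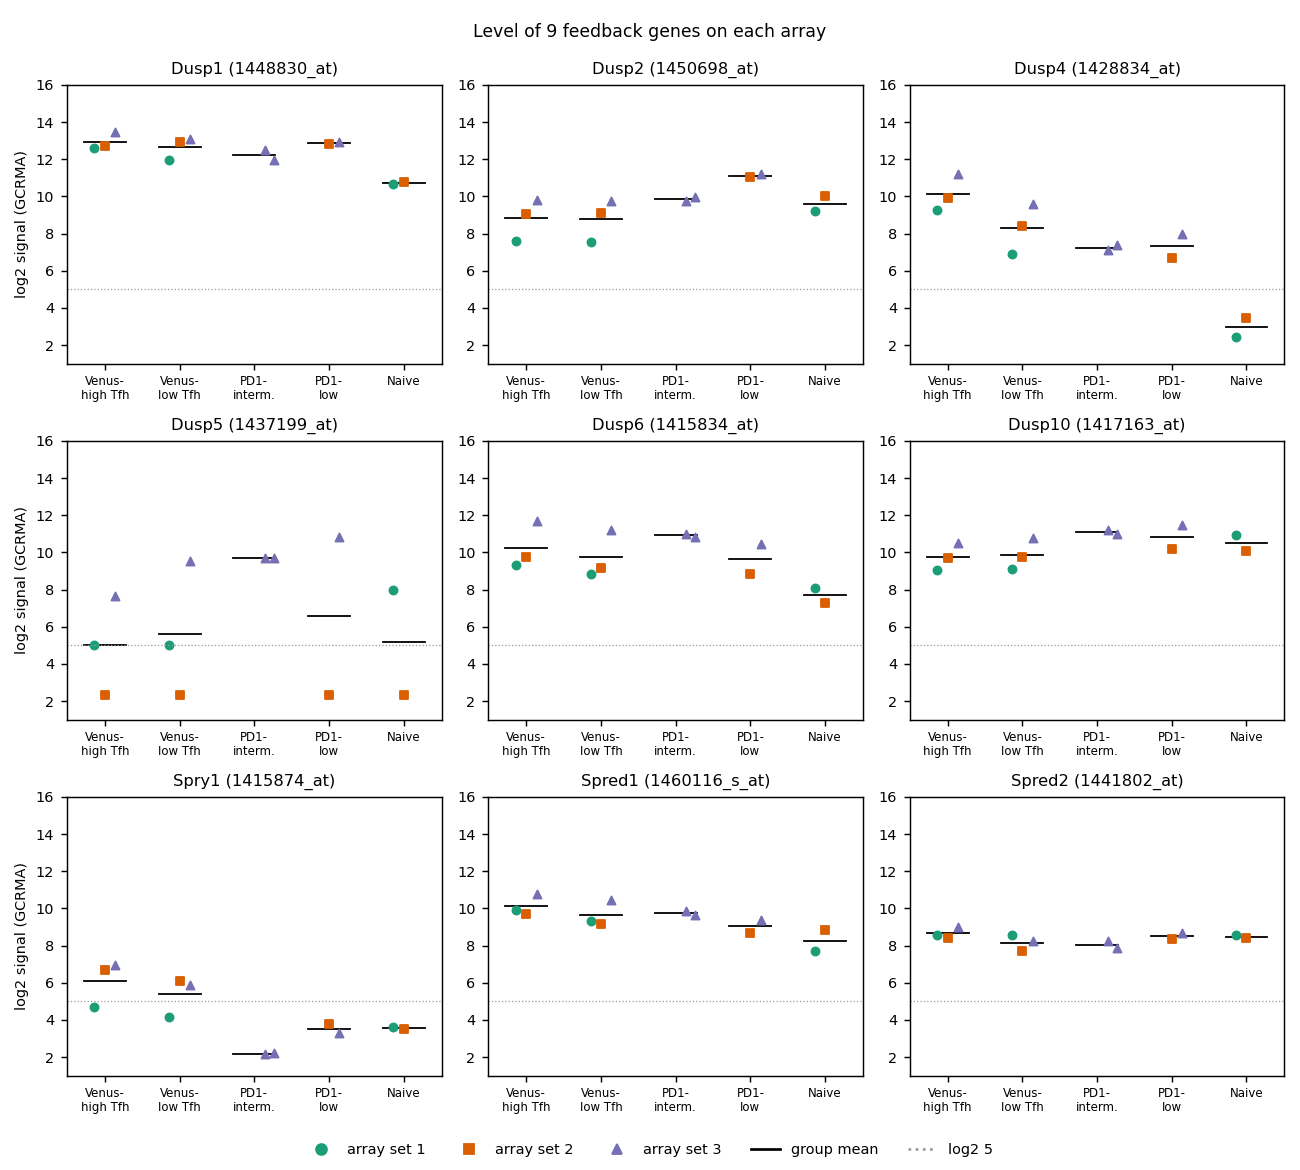
Log2 GCRMA signal (vertical axis) of 9 genes on each of the 12 arrays, by group from Venus-high Tfh at the left to naive cells at the right, with the group mean as a bar and the array set as colour and shape. Dusp4 runs from 9.29 to 11.19 in Venus-high Tfh, against 2.45 and 3.44 in naive cells, Spry1 reaches 5 in the Tfh groups alone, and the set 2 arrays of Dusp5 lie at 2.32 to 2.35.

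Spry1, a Sprouty protein that dampens Ras and ERK signalling downstream of the T cell receptor, read above log2 5 on Tfh arrays alone. It read 4.70, 6.67 and 6.94 in Venus-high Tfh, 4.16, 6.08 and 5.88 in Venus-low Tfh, 2.14 and 2.20 in PD1-intermediate, 3.76 and 3.30 in PD1-low and 3.59 and 3.51 in naive cells. Every Tfh array lay above every array of the other groups, though the set 1 arrays of both Tfh groups were under 5. Spry1 passed the filter only through the 4 Tfh arrays at log2 5 or more, so its differences from the other groups, whose arrays all lie under that floor, are given as a description and not as a test. Venus-high minus PD1-low was 3.04 ± 0.48 set-adjusted, with 2.90 and 3.64 within sets 2 and 3, and 2.57 ± 0.76 in the plain fit. With PD1-low cells set at the floor of log2 5, Venus-high Tfh was at least 2.14-fold higher.

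For Spry1 Venus-high minus naive was 2.28 ± 0.48 set-adjusted and 2.55 ± 0.76 in the plain fit, at least 2.14-fold against the floor. Venus-low minus PD1-intermediate was 3.73 ± 0.53 set-adjusted and 3.20 ± 0.76 in the plain fit, at least 1.29-fold. The Tfh groups differed by 0.73 ± 0.42 set-adjusted (adjusted p = 0.336), with 0.54, 0.59 and 1.06 within the sets, and an order between them was not shown. Spry2, its paralogue, had 1 probe set at 2.19 to 4.61 over all arrays, highest on Venus-high replicate 1, and another with group means of 2.10 to 2.18. Both lay under the floor on every array, which gives no order of groups.

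Spred1, which recruits neurofibromin to switch Ras off, had 8 probe sets, of which 6 were tested. The probe set 1423160_at had the smallest SE of the 6 in the plain fit and read 9.71, 9.88 and 10.14 in Venus-high Tfh, 9.58, 9.43 and 10.08 in Venus-low Tfh, 9.17 and 8.72 in PD1-intermediate, 8.18 and 8.48 in PD1-low and 7.56 and 8.23 in naive cells. Group means stepped down in that order, Tfh arrays lay above those of all other groups, and the Tfh groups overlapped each other, as did PD1-low and naive cells. It was the only member called in the plain fit between Venus-high Tfh and PD1-low cells, with 1.58 ± 0.32 (adjusted p = 0.0231), or 1.72 ± 0.21 set-adjusted (adjusted p = 0.00174, 3.29-fold) and 1.71 and 1.66 within sets 2 and 3. The plain call was lost with only these groups' arrays in the fit, with array weights, and without Venus-high replicate 2 or 3 or either PD1-low array, the highest adjusted p over all 25 alternatives being 0.236. Against naive cells the rise in Venus-high Tfh was 2.02 ± 0.32 (adjusted p = 0.00572), or 1.87 ± 0.21 set-adjusted (adjusted p = 0.000977), and the plain call was lost without naive replicate 1 (adjusted p = 0.0602), with array weights (0.079) and with only the arrays of these groups (0.12).

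The other tested Spred1 probe sets differed among themselves in how many comparisons they passed. In the set-adjusted fit, Venus-high Tfh exceeded PD1-low cells by 1.33 ± 0.31 at 1460116_s_at (adjusted p = 0.0224), 1.20 ± 0.30 at 1452911_at (adjusted p = 0.0291) and 1.99 ± 0.29 at 1423162_s_at (adjusted p = 0.00327). At 1423161_s_at the difference was 2.08 ± 0.40, with 4.52, 6.07 and 7.22 in Venus-high Tfh, against 4.32 and 4.66 in PD1-low cells. This probe set reached log2 5 in the CXCR5+ groups alone. Its differences from PD1-low and naive cells are therefore given as a description and not as a test. At 1428777_at the difference was 0.63 ± 0.22 (adjusted p = 0.0828), and against naive cells it was -0.09 ± 0.22 (adjusted p = 0.797). This probe set reached log2 5 on arrays of set 3 alone, which held no naive array. In set 1 it read 3.84 in both Venus-high Tfh and naive cells, and in set 2 4.63 and 4.96. All these lie under the floor, so the value against naive cells gives no order of the 2 groups. Against naive cells 1460116_s_at, 1452911_at and 1423162_s_at rose by 1.53, 1.70 and 2.22 (adjusted p = 0.0109, 0.00626 and 0.0017), and 1423161_s_at differed by 1.13 ± 0.40. Leaving out 1 array ended some of these calls. Over PD1-low cells they were 1460116_s_at (without Venus-high replicate 3 or either PD1-low array) and 1452911_at (without any of 6 arrays). Over naive cells it was 1460116_s_at (without Venus-high replicate 1, adjusted p = 0.0566). Across the 12 arrays, pairs of these 6 probe sets correlated by 0.169 to 0.937 (Pearson's r), the lowest for 1423162_s_at with 1428777_at, and probe sets of 1 gene on the same arrays are not independent.

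Of these, 1423162_s_at also distinguished the Tfh groups. It read 7.65, 6.28 and 7.35 in Venus-high Tfh, 6.32, 4.92 and 6.44 in Venus-low Tfh, 5.89 and 5.08 in PD1-intermediate, 3.88 and 5.89 in PD1-low and 5.26 and 3.96 in naive cells. Venus-high minus Venus-low Tfh was 1.20 ± 0.25 set-adjusted (adjusted p = 0.033), with 1.33, 1.36 and 0.91 within the sets. The same difference had an SE of 0.69 in the plain fit (adjusted p = 1.00), and an adjusted p of 0.714 with the replicate block on all arrays and 0.0486 with the block on the 6 Tfh arrays. The set-adjusted call was lost on leaving out any of the 6 Tfh arrays. At the other 5 tested Spred1 probe sets the Tfh groups differed by -0.04 to 0.48 set-adjusted, with no call. The suffix s_at marks probes that match more than 1 transcript of the design. The remaining 2 Spred1 probe sets had group means of 2.11 to 3.40 and were not tested.

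Spred2, the related Ras and ERK inhibitor, varied less. Its brighter probe set, 1441802_at, read 8.57, 8.38 and 9.02 in Venus-high Tfh, 8.57, 7.70 and 8.22 in Venus-low Tfh, 8.22 and 7.88 in PD1-intermediate, 8.33 and 8.65 in PD1-low and 8.57 and 8.38 in naive cells. The 3 arrays of set 1 gave the identical value 8.57, whatever the group, and PD1-intermediate arrays lay below all Venus-high, PD1-low and naive arrays, while the other groups overlapped. No comparison of it passed in either fit, the smallest adjusted p being 0.164. The other tested probe set, 1434403_at, read 7.32, 7.15 and 8.35 in Venus-high Tfh, 6.86, 5.73 and 7.81 in Venus-low Tfh, 6.81 and 6.35 in PD1-intermediate, 5.17 and 7.40 in PD1-low and 7.0 and 6.94 in naive cells. It was higher in Venus-high Tfh than in PD1-low cells in the set-adjusted fit (1.44 ± 0.31, adjusted p = 0.0164), with 1.98 and 0.95 within sets 2 and 3, a call lost without Venus-high replicate 2 or PD1-low replicate 1. In the plain fit the difference was 1.32 ± 0.77 (adjusted p = 0.561). The 2 probe sets correlated by 0.66 over the 12 arrays, and 3 further Spred2 probe sets had group means of 2.07 to 3.43.

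**Figure D2:**
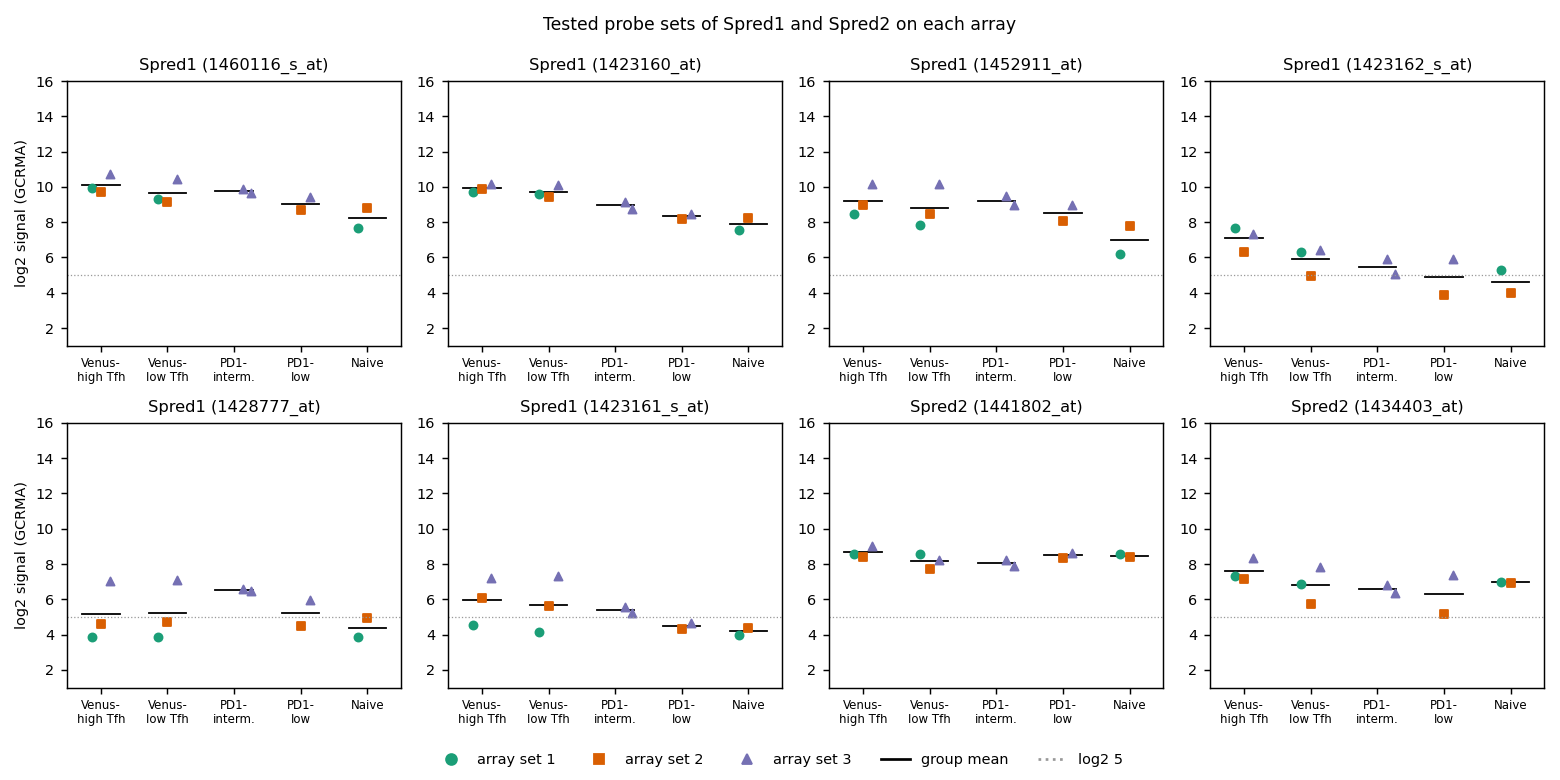
Log2 GCRMA signal (vertical axis) of the 6 tested Spred1 and 2 tested Spred2 probe sets on each array, by group from Venus-high Tfh at the left to naive cells at the right, with group means as bars and array sets as colour and shape. Spred1 1423160_at steps down over the groups with little spread between sets, 1428777_at spreads by array set, and Spred2 1441802_at stays between 7.70 and 9.02.

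By comparison, most calls were in Venus-high Tfh against naive and PD1-low cells. Against naive cells 3 of the 15 tested probe sets rose in the plain fit (Dusp1, Dusp4 and Spred1 1423160_at) and 0 fell. Of all 22024 probe sets tested, 5.44% were called higher and 2.33% lower in that fit. Before adjustment p was under 0.05 for 8 of the 15 higher and 0 lower. For such unadjusted counts the share of all probe sets was not computed. In the set-adjusted fit 8 were called higher, in Dusp1, Dusp4, Dusp6, 4 probe sets of Spred1 and Spry1, the last of which entered through its Tfh arrays alone, and 2 were called lower, Dusp2 and Dusp10, against 13.8% and 15.2% of all probe sets. The median over the 15 was 1.86 in the plain fit and 1.53 set-adjusted, and over all probe sets 0.16 and -0.03. Because several of the 15 are of Spred1, the 9 genes are also given by their tested probe set with the highest mean. Over these the medians were 1.86 and 1.53, with 2 higher and 0 lower in the plain fit and 5 higher and 2 lower set-adjusted.

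Against PD1-low cells 1 probe set, Spred1 1423160_at, was called higher in Venus-high Tfh in the plain fit and 0 lower. Of all probe sets, 3.44% were called higher and 2.67% lower in that fit. Before adjustment p was under 0.05 for 4 higher and 1 lower, again without a share of all. The set-adjusted fit called 8 higher, in Dusp4, Spred1 (5 probe sets), Spred2 and Spry1, and 1 lower, Dusp2, against 12.5% and 11.7% of all. Spry1 is counted with the same limit, as is Spred1 1423161_s_at, which reached its filter through arrays of the CXCR5+ groups alone. For both, the difference from PD1-low cells is a description and not a test. The median over the 15 was 0.69 and 1.20 in the plain and set-adjusted fits, and -0.18 and -0.04 over all. Over the 9 genes with 1 probe set each it was smaller, 0.17 and 0.24. Of these genes 0 were called in the plain fit, and 3 higher, Spry1 included, and 1 lower set-adjusted. These 2 comparisons share the Venus-high arrays, so their results are not independent.

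In Venus-high against Venus-low Tfh limma called 0 of the 15 in the plain fit, with 1 higher (Dusp4) and 0 lower at an unadjusted p under 0.05, where 0.159% of all probe sets were higher and 0.259% lower. The set-adjusted fit called 2 higher, Dusp4 and Spred1 1423162_s_at, and 0 lower, against 3.77% and 5.21% of all, with a median of 0.39 over the 15 and 0.04 over all probe sets. Over the 9 genes with 1 probe set each the median was 0.48. In Venus-low Tfh against PD1-intermediate cells the plain fit called 0, with 2 higher and 0 lower unadjusted, and 0.109% of all probe sets were called higher and 0.0726% lower. The set-adjusted fit called 2 higher, Dusp4 and, with the same limit, Spry1, against 1.14% higher and 0.767% lower of all. The plain median over all probe sets was -0.43 here, with both PD1-intermediate arrays in the set of the highest quantiles, and -0.04 set-adjusted, while that of the 15 was 0.11 and 0.68. With 1 probe set per gene it was -0.13 and 0.29.

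In PD1-intermediate against PD1-low cells the plain fit called 0, with none at an unadjusted p under 0.05 in either direction, and 1.49% of all probe sets were called higher and 0.499% lower. Set-adjusted, Dusp2 was lower and 0 were higher, against 4.51% higher and 2.72% lower of all, with a median of -0.30 over the 15 and -0.03 over all. The plain medians had the opposite sign over the 15 (0.60) and were 0.26 over all. With 1 probe set per gene the member medians were -0.12 in the plain fit and -0.67 set-adjusted. In PD1-low against naive cells the plain fit called 0, with 2 higher (Dusp1 and Dusp4) and 0 lower unadjusted, and 0.0136% of all probe sets were called higher and 0.0182% lower. Set-adjusted, Dusp4 was higher and 0 were lower, against 0.173% and 0.0772% of all, with a median of 0.15 over the 15 and -0.01 over all, against 0.77 and 0.32 in the plain fit. With 1 probe set per gene the member medians were 0.20 set-adjusted and 1.43 in the plain fit.

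**Figure D3:**
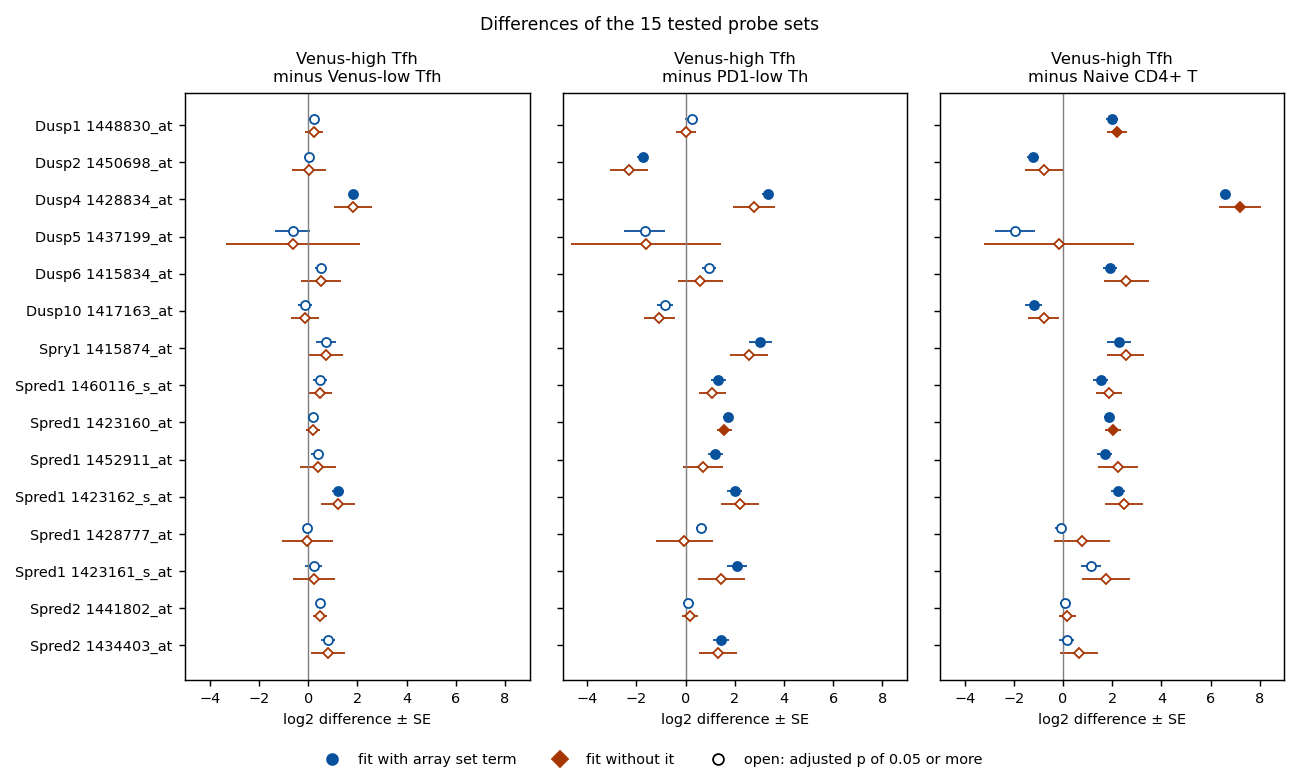
Log2 difference ± SE (horizontal axis) of the 15 tested probe sets for Venus-high Tfh minus Venus-low Tfh, PD1-low Th and naive cells, from the set-adjusted fit (circles) and the plain fit (diamonds), with filled symbols for an adjusted p under 0.05. Dusp4 is filled in all 3 panels for the set-adjusted fit and in the naive panel for the plain fit, and the SE of Dusp5 is the widest in every panel.

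Other phosphatases and Sprouty genes, from a list of 16 of which 6 were measured, had 2 genes with large differences. Dusp16, a phosphatase that restrains JNK, read 10.25, 10.42 and 11.05 in Venus-high Tfh, 8.74, 8.41 and 9.93 in Venus-low Tfh, 7.11 and 5.17 in PD1-intermediate, 5.35 and 5.12 in PD1-low and 5.01 and 5.33 in naive cells. The Tfh groups did not overlap each other or any other group, and PD1-low and naive cells overlapped. Dusp16 rose in Venus-high Tfh by 5.34 ± 0.63 over PD1-low cells (adjusted p = 0.00156) and by 5.40 ± 0.63 over naive cells (adjusted p = 0.00115). Ptpn5, a tyrosine phosphatase known in neurons to inactivate ERK and p38, read 7.86, 8.56 and 9.75 in Venus-high Tfh, against 4.49 and 3.16 in PD1-low and 4.30 and 4.56 in naive cells. Set against the floor it was at least 13.2-fold higher than in each, with differences of 4.90 ± 0.78 and 4.29 ± 0.78. Ptpn5 passed the filter only through its Tfh arrays and 1 PD1-intermediate array at 5.24. As for Spry1, these differences are therefore given as a description and not as a test. The calls of Dusp16 held with each array left out. Array weights ended the calls of Dusp16 over PD1-low and naive cells (adjusted p = 0.323 and 0.238). Of the 6, 2 were higher and 0 lower in each of these comparisons in the plain fit, Ptpn5 being counted with that limit. Set-adjusted, 2 were higher and 1 lower in each. Of all probe sets, 3.44% were called higher and 2.67% lower than in PD1-low cells, and 5.44% and 2.33% against naive cells. Set-adjusted, these shares were 12.5% and 11.7%, and 13.8% and 15.2%. The plain median over the 6 was -0.97 against PD1-low and -0.29 against naive cells. In the other 4 comparisons 0 were called in the plain fit, and the unadjusted counts were 0 to 2 higher and 0 to 1 lower.

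In the Ras and ERK cascade, with 22 of 29 genes measured, 1 gene was higher and 4 lower in Venus-high Tfh than in PD1-low cells, and 1 was higher and 3 lower than in naive cells. The plain medians over the 22 were -0.43 and 0.14, and the set-adjusted fit called 3 higher and 6 lower, and 3 higher and 7 lower. The shares of all probe sets called higher and lower were 3.44% and 2.67% against PD1-low cells, and 5.44% and 2.33% against naive cells. In the set-adjusted fit they were 12.5% and 11.7%, and 13.8% and 15.2%. Ksr1, the scaffold that joins Raf, MEK and ERK, read 10.96, 11.79 and 11.56 in Venus-high Tfh, against 8.60 and 9.38 in PD1-low and 7.73 and 7.87 in naive cells. Its rise was 2.45 ± 0.36 (adjusted p = 0.00478) over PD1-low and 3.64 ± 0.36 (adjusted p = 0.000498) over naive cells, and PD1-intermediate cells exceeded PD1-low cells by 2.82 ± 0.40 (adjusted p = 0.00945). The Ksr1 call over PD1-low cells was lost without PD1-low replicate 1 for Venus-high Tfh, and without that array or either PD1-intermediate array for PD1-intermediate cells. Rasgrp2, an exchange factor for Rap1, read 5.11, 6.5 and 4.20 in Venus-high Tfh, against 12.73 and 12.36 in PD1-low and 12.63 and 12.80 in naive cells. It fell by 7.27 ± 0.87 (adjusted p = 0.00171) and 7.45 ± 0.87 (adjusted p = 0.00118). Rras2, a Ras-related GTPase, was under 5 on all Venus-high arrays and lower by at least 104-fold than in PD1-low (adjusted p = 0.00154) and at least 79.5-fold than in naive cells (adjusted p = 0.00151). Rasal1, a Ras inhibitor of the GTPase-activating kind, fell by 1.88 ± 0.38 relative to naive cells (adjusted p = 0.0192, lost without Venus-high replicate 1 or 2 or either naive array), and Rasa3, of the same kind, by 2.84 ± 0.65 relative to PD1-low cells (adjusted p = 0.0392), a call lost on leaving out any of 9 arrays. Rasgrp1 and Rasal3 were measured by probe sets displaced in an array set and are not described.

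Of 19 measured genes of the JNK, p38 and ERK5 cascades (21 listed), 0 were higher and 2 lower in Venus-high Tfh than in PD1-low cells, and 2 were higher and 1 lower than in naive cells. The plain medians over the 19 were -0.03 and 0.31, and the set-adjusted fit called 5 higher and 2 lower in each. The shares of all probe sets called higher and lower were 3.44% and 2.67% against PD1-low cells, and 5.44% and 2.33% against naive cells. In the set-adjusted fit they were 12.5% and 11.7%, and 13.8% and 15.2%. Gadd45b, which activates kinases upstream of p38 and JNK, rose by 5.0 ± 0.85 over naive cells (adjusted p = 0.00813), and Map2k3, a kinase of p38, by 2.28 ± 0.40 (adjusted p = 0.00875). Both calls were lost without naive replicate 1. Mapk11, which encodes the beta form of p38, read 9.66, 9.73 and 9.70 in Venus-high Tfh, 10.90, 10.98 and 10.93 in Venus-low Tfh, 11.94 and 12.16 in PD1-intermediate, 11.21 and 11.62 in PD1-low and 10.82 and 10.52 in naive cells. The Venus-high arrays lay below all others, and the difference from PD1-low cells was -1.72 ± 0.22 (adjusted p = 0.00264) and from naive cells -0.97 ± 0.22 (adjusted p = 0.0338, lost on leaving out any of 9 arrays). Map2k6, another kinase of p38, was lower than in PD1-low cells by -1.53 ± 0.37 (adjusted p = 0.0494), a call lost on leaving out any of 11 arrays.

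Among early genes induced through ERK, 16 of 19 measured, 1 was higher and 1 lower in Venus-high Tfh than in PD1-low cells, and 3 were higher and 0 lower than in naive cells. The plain medians over the 16 were -0.44 and 0.82, and the set-adjusted fit called 2 higher and 4 lower, and 7 higher and 2 lower. The shares of all probe sets called higher and lower were 3.44% and 2.67% against PD1-low cells, and 5.44% and 2.33% against naive cells. In the set-adjusted fit they were 12.5% and 11.7%, and 13.8% and 15.2%. Egr2, a transcription factor induced by the T cell receptor, read 13.36, 13.51 and 13.79 in Venus-high Tfh, 13.12, 12.98 and 13.53 in Venus-low Tfh, 12.80 and 12.58 in PD1-intermediate, 11.60 and 12.11 in PD1-low and 9.93 and 11.03 in naive cells. It rose in Venus-high Tfh by 3.07 ± 0.37 over naive (adjusted p = 0.00138) and 1.70 ± 0.37 over PD1-low cells (adjusted p = 0.0317, lost on leaving out any of 9 arrays). Ier2, an immediate early gene, was lower than in PD1-low cells by -2.83 ± 0.54 (adjusted p = 0.0171), with 6.00, 7.62 and 7.35 in Venus-high Tfh, against 9.97 and 9.66 in PD1-low cells, a call lost without either PD1-low array. Fos rose by 3.43 ± 0.71 over naive cells (adjusted p = 0.0204), a call lost without Venus-high replicate 2 or 3 or either naive array, and Elk3, an ETS factor, by 1.66 ± 0.42 (adjusted p = 0.0495, lost on leaving out any of 9 arrays). Of 13 measured proximal T cell receptor genes (15 listed, plain medians 0.03 and 0.19), 1 was called in the plain fit, Ptpn22, a phosphatase that dampens Lck and Zap70, with 1.22 ± 0.23 over naive cells (adjusted p = 0.012, lost without either naive array). Set-adjusted, 3 of the 13 were higher and 1 lower in Venus-high Tfh against PD1-low cells, and likewise 3 and 1 against naive cells. The shares of all probe sets are those given above. In Venus-high against Venus-low Tfh limma's plain fit called 0 genes of these 5 lists, with 0 to 1 higher and 0 to 3 lower in a list at an unadjusted p under 0.05. Called of all probe sets were 0.159% higher and 0.259% lower in the plain fit, and 3.77% and 5.21% set-adjusted. The set-adjusted fit called 1 gene higher, Dgkz, a kinase that removes diacylglycerol (0.63 ± 0.14, adjusted p = 0.0367), and 5 lower, in the Ras and ERK list Rasgrp2, Rras2, Rasal1 and Rasa3 and in the p38 list Mapk11 (-1.24 ± 0.13, adjusted p = 0.00595). With the replicate block on all arrays Mapk11 alone of these 6 kept an adjusted p under 0.05 (0.0482), the others being Rasgrp2 (0.0854), Rras2 (0.115), Rasal1 (0.132), Rasa3 (0.19) and Dgkz (0.589). With the block on the 6 Tfh arrays Mapk11 and Rasal1 did (adjusted p = 0.0336 each).

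Of the 29 calls of the plain fit in the members and these lists, those of Ptpn5 included, 21 were lost with only the arrays of the 2 groups in the fit and 13 with array weights. Those lost in this way though they held with each array left out were, beside Dusp16, Mapk11 against PD1-low cells (adjusted p = 0.153), Egr2 over naive cells (0.0711) and Rasal1 against PD1-low cells with only the arrays of the 2 groups, and Rasgrp2 against PD1-low cells with array weights (0.0558). The calls kept under all 25 alternatives were Dusp4, Ksr1, Rasgrp2 and Rras2 against naive cells and Rras2 against PD1-low cells.

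**Figure D4:**
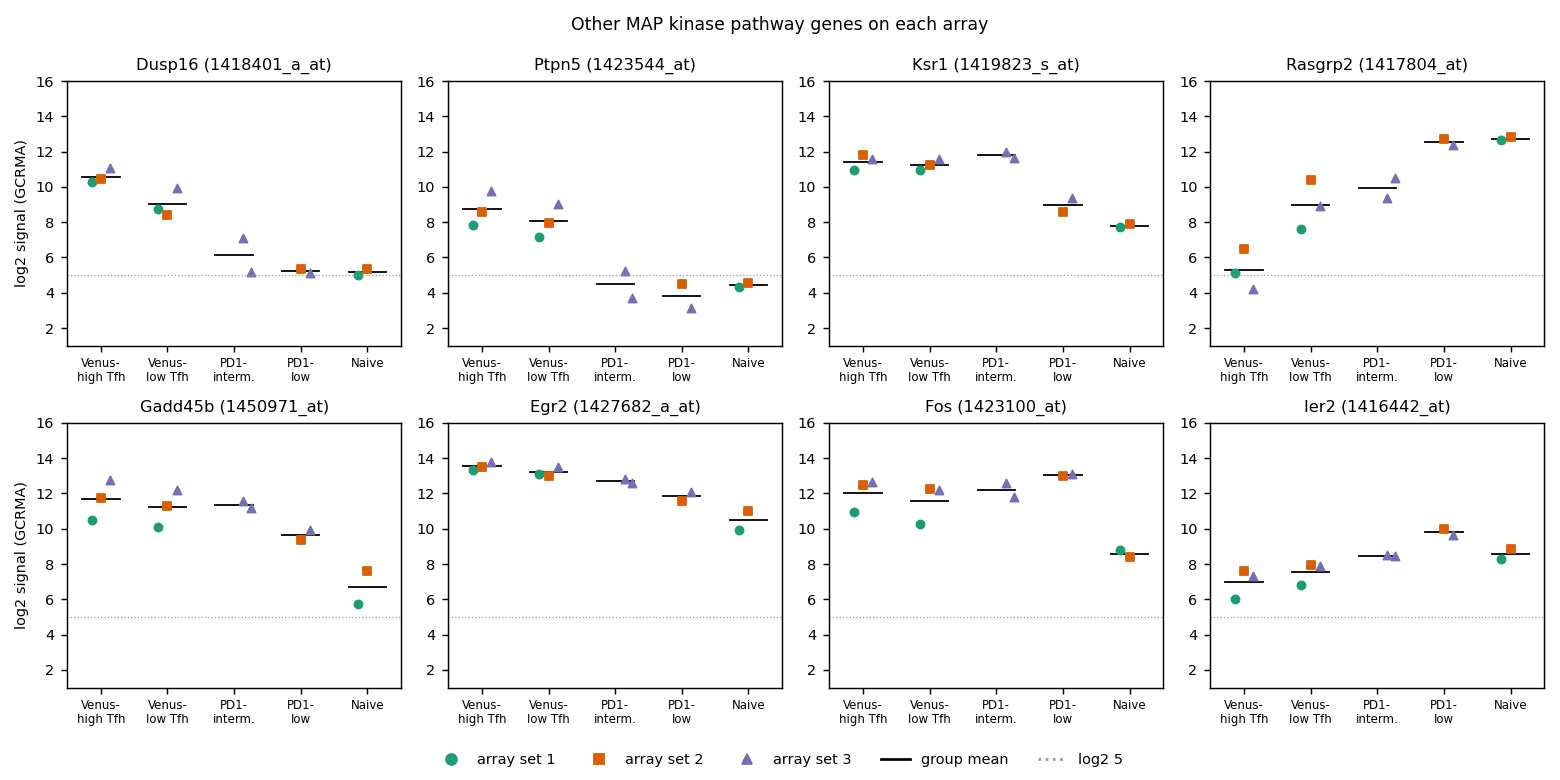
Log2 GCRMA signal (vertical axis) of 8 other genes of the pathway on each array, by group from Venus-high Tfh at the left to naive cells at the right, with group means as bars and array sets as colour and shape. Dusp16 and Ptpn5 are high in the Tfh groups, Ksr1 in the 3 CXCR5+ groups, Rasgrp2 is low in Venus-high Tfh, and Ier2 is highest in PD1-low cells.

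Genes with the pattern most like that of a member were looked up for Dusp4, Spry1 and Dusp6, the members with the widest range of group means among those without displaced probe sets. Over the 12 arrays, Dusp4 correlated best with Dgcr6 (Pearson's r 0.962), Prnp (0.95) and Stk40 (0.944), and after the set means were removed r was 0.978, 0.968 and 0.933. Spry1 correlated best with Vat1 (0.908), Morn4 (0.907) and Slc16a10 (0.907), and Dusp6 with Eola1 (0.982), Xiap (0.982) and BC004004 (0.981). For Dusp6 these values were 0.927 to 0.953 after the set means were removed. The values describe the same 12 arrays, which share sets and groups, and were chosen as the highest among many.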

How the data were processed

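The deposited values are log2 signals made by the authors with GCRMA, per the submitters' processing notes, which adjusts background by probe sequence, normalizes quantiles and summarises each probe set. The version and which arrays were normalized together are not given in the sources used here. RNA (20 ng per sample) was amplified before hybridisation to Affymetrix mouse arrays, per the labels' protocols. Symbols came from the platform annotation, where 34958 probe sets had 1 symbol, 932 several and 9211 none.

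Probe sets at log2 5 or more on at least 2 of 12 arrays (22024) were fitted with limma 3.58.1 in R 4.3.3, with all 5 groups and 7 residual degrees of freedom. The p-values were adjusted by Benjamini-Hochberg over all of them, and calls were made at 0.05. A fit with the array set, found by clustering the arrays' quantiles, as a term left 5 residual degrees of freedom. Where a group lay below log2 5 on all arrays, a fold is a bound against that floor. There are no detection calls, and the number of arrays limits the precision. The fit was tested on simulated data. P-values measure the spread between samples, which may in part be technical.

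Deviations of same-numbered arrays of the Tfh groups correlated by 0.948, 0.973 and 0.951. Each of these pairs lay in 1 array set, so a shared number and a shared set cannot be told apart, and the correlations do not establish pairing. Venus-high Tfh and naive cells share only 2 numbers, whose arrays also lay in 1 array set each and correlated by 0.805 and 0.916, and pairing is not established there either. In the other comparisons, where most same-numbered arrays lay in different array sets, the correlations ran from -0.921 to 0.014.

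Members and lists were chosen with earlier results of these data known. All members are named. Of each other list, those called in the plain fit are named, at most 4 per comparison by size of change. The genes called in the set-adjusted fit between the Tfh groups were named after their values were seen. Figures were drawn with matplotlib 3.10.9 in Python 3.11.15.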

Additional observations from a re-analysis of the deposited data

How the results depend on the processing

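No member result called in the plain fit changed direction under any alternative to that fit. None called under such an alternative, the set term among them, had the opposite sign in the plain fit. Sign changes called in neither numbered 122 over the members and the other named genes. For alternatives to the set-adjusted fit only counts of calls were compared, except on leaving out 1 array. In the plain fit, 1 of 15 probe sets was called for Venus-high Tfh against PD1-low cells and 3 against naive cells, and 0 in the other 4 comparisons. Quantile normalization gave 5 and 5, only the arrays of the 2 groups gave 0 and 1, and array weights gave 0 against PD1-low cells and 1 for Venus-low Tfh against PD1-intermediate cells. Keeping 1 probe set per gene gave 0 against PD1-low cells. The set term gave 2 for Venus-high against Venus-low Tfh, 2 for Venus-low Tfh against PD1-intermediate, 1 for PD1-intermediate against PD1-low, 1 for PD1-low against naive, 9 for Venus-high Tfh against PD1-low and 10 against naive cells. With the set as a random block these counts were 2, 3, 1, 2, 9 and 10. The set-term counts include Spry1 against PD1-intermediate, PD1-low and naive cells, and Spred1 1423161_s_at against PD1-low cells. As stated above, those differences are a description and not a test. The replicate block gave 2 for Venus-low Tfh against PD1-intermediate, 1 for PD1-low against naive and 3 for Venus-high Tfh against PD1-low cells, where same-numbered arrays lay in different array sets, and, on the 6 Tfh arrays alone (an alternative chosen after seeing the data), 1 between the Tfh groups. It changed no other count by more than 1.5 times. Leaving out 1 array gave 0 to 2 against PD1-low cells and 1 to 4 against naive cells, with 1 without naive replicate 1, and 0 in the others. The share of all probe sets called was computed for the plain and set-adjusted fits alone. A changed count under another setting can therefore not be set against the change in all probe sets. The cause of these changes was not tested.

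The set-adjusted alternatives were chosen after seeing the data, and for these too the share of all probe sets called was not computed. With no filter the counts were 1 between the Tfh groups, 1 for Venus-low Tfh against PD1-intermediate and 0 for PD1-intermediate against PD1-low cells. With a floor at log2 5 they were 1 between the Tfh groups, 1 for Venus-low Tfh against PD1-intermediate and 0 for PD1-low against naive cells. Without array set 2 they were 0 between the Tfh groups, 1 for Venus-low Tfh against PD1-intermediate, 2 for PD1-intermediate against PD1-low and 2 for PD1-low against naive cells, with fewer arrays. Leaving out 1 array gave 1 to 4 between the Tfh groups, 0 to 3 for Venus-low Tfh against PD1-intermediate, 0 to 2 for PD1-intermediate against PD1-low, 1 to 3 for PD1-low against naive, 6 to 11 for Venus-high Tfh against PD1-low and 8 to 11 against naive cells. Of the 25 set-adjusted calls, 14 held with each array left out in turn and 11 were lost at least once. The 25 include those of Spry1 and of Spred1 1423161_s_at, which are counted with the limit given above.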
